A study of Drosophila melanogaster with 3 samples.

Results

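Smox-bound regions that lie inside introns of autosomal genes, close to a promoter but outside it, are described here. They were taken from chromatin immunoprecipitation followed by sequencing (ChIP-seq) of whole Drosophila melanogaster white prepupae, sexes pooled, from a transgenic line that stably carries Smox with GFP at its C-terminal end. An anti-GFP antibody was used, chromatin was sheared by sonication, and the samples form 1 group of 3 biological replicates, with no second condition. The labels do not say what drives the fusion protein, whether untagged Smox was also present, or how many animals were pooled. A peak was a member when its summit lay on 2L, 2R, 3L, 3R or 4, inside a gene but in no annotated exon. The summit also had to lie 501 to 5000 bp from the nearest transcription start site (TSS) of any gene. Of the 6622 peaks on the list that passed the authors' reproducibility threshold, 5233 were autosomal and 1359 were members, 26.0% of the autosomal ones. Within this list members were chosen by coordinates and not by strength. The list itself holds only strong peaks: its scores are the 6622 highest of the list called on the pooled replicates.

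Smox is the transcription factor of the fly Activin pathway, a SMAD protein that enters the nucleus once the activated receptor has phosphorylated it. SMAD proteins bind short sequence elements on their own with low affinity and usually act with other transcription factors, so the genes they reach differ from tissue to tissue. In flies, introns close to the promoter, the first one above all, commonly hold enhancers and alternative promoters. A pulse of the steroid hormone ecdysone sets off pupariation, and in larval brain neurons that remodel, Activin signalling is known to be needed for expression of the ecdysone receptor. Chromatin of whole animals pools all tissues, so a strong peak in few cells and a weak peak in many cannot be told apart.

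The summit windows of 8 members are printed to show what bound intronic sequence looks like: the 6 strongest that could be printed, 1 per gene, and 1 each with a Mad site and with a GC-rich SMAD element. Each is the plus strand of the dm6 assembly, 75 bp either side of the summit, and wholly intronic. Capitals mark the SMAD box (GTCT, or AGAC on the other strand) and the GATA factor site (AGATAA, or TTATCT).
ush, chr2L:480981-481131, intron of u-shaped: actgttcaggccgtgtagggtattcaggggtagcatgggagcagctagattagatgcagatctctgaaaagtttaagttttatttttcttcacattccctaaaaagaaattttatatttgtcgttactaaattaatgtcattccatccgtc
Lk6, chr3R:11760980-11761130: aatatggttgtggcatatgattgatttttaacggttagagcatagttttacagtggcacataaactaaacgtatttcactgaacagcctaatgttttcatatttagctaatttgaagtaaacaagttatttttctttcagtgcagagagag
CG4496, chr2L:7188556-7188706: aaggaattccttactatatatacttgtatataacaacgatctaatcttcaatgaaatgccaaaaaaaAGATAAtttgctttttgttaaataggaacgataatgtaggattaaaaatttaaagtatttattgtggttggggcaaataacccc
Trl, chr3L:14759430-14759580: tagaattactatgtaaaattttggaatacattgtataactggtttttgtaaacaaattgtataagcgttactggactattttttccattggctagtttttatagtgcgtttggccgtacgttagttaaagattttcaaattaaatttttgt
CG9663, chr2L:3302124-3302274: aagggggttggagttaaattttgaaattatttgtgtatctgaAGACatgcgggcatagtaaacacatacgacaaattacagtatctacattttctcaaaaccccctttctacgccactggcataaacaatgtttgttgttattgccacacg
Eip78C, chr3L:21253827-21253977: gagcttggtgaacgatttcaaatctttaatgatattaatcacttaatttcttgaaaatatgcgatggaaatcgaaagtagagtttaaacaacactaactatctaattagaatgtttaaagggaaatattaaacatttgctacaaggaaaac
CtBP, chr3R:13012466-13012616, with the Mad site: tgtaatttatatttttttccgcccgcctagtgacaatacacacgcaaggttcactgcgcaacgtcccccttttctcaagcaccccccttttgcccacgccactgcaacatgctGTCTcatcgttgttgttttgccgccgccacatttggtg
chm, chr2L:7420669-7420819, with the GC-rich SMAD element: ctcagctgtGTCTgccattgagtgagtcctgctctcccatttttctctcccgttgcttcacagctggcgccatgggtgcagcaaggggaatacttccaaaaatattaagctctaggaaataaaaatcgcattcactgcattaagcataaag
The first 6 windows were AT-rich, with a GC content of 27.2% to 37.7%. Of these 6, only the window in CG9663 held a SMAD box and only that in CG4496 held a GATA factor site. The CtBP window, with a Mad site (GCCGNCGC), had a GC content of 51.0%, and the chm window, with GGCGCC, had 45.7%.

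The deposited list of a replicate has 30000 regions, ranked here by the score of the authors' peak caller with rank 1 the strongest. Read counts are not part of the lists, and the depth of each library is unknown. For values per replicate the strongest 6622 regions of each list were taken. By the same rule these held 1382, 1296 and 1344 members in replicates 1, 2 and 3, or 25.4% ± 0.709 of their autosomal regions (SD, n = 3). With 3 replicates the exact two-sided sign-flip test used below cannot give a p under 0.25, so no difference between kinds of peak can pass 0.05, and the spread between replicates is given beside each. These are biological replicates per the labels, but a shared control alignment stands behind all 3 lists.

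Members were found again in the replicates about as often as other peaks. A strong region of replicate 1 covered 90.6% of the members, against 84.8% in replicate 2 and 86.7% in replicate 3. Of the 1359 members, 1002 or 73.7% were covered in all 3 replicates (95% Wilson interval 71.3% to 76.0%, counting error only), while 71.8% of all thresholded peaks were. A further 219 members were covered in 2 replicates, 117 in 1 and 21 in none. Coverage followed strength: 99.7% of the strongest 25% of the members, ranks 3 to 1639, were covered in all 3 replicates, but only 19.1% of the weakest 25%, ranks 4881 to 6616. Only the strongest 6622 regions of a replicate count here, so members ranked near that cut can miss it through small shifts in rank. The whole lists of 30000 regions covered 99.6%, 99.3% and 99.3% of the members in replicates 1, 2 and 3. The thresholded list was itself derived from the 3 replicate lists and the pooled one, so this is a description and no independent check. The ranks of a member in 2 replicates went together, with Spearman's rho of 0.875, 0.876 and 0.866 across the 1343, 1343 and 1339 members with a rank in both libraries of a pair, which share a control alignment. The rank of a member in a replicate is that of the strongest region overlapping it, so neighbouring members can share 1 rank, which enters rho and coverage. In wit, the member at pooled rank 2552 took ranks 133, 158 and 100 in this way. With overlapping members merged into sites, 72.5% of sites were covered in all 3 replicates (added after seeing the data).

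In strength the members stood between promoter peaks and 2 kinds of peak outside promoters, deep intronic and nearby intergenic ones; exonic and farther intergenic peaks were not compared. The median rank of a member was 3107, against 2802 for peaks within 500 bp of a TSS, 3561 for intergenic peaks 501 to 5000 bp from a TSS and 3792 for intronic peaks over 5000 bp from a TSS. Over all autosomal peaks it was 3293. In replicates 1, 2 and 3, 25.6%, 24.3% and 25% of the members fell among the strongest 25% of the list. Over all regions of a list this share is 25% by construction, so the members were close to the average. For the deep intronic peaks the share was 17.6%, 18.7% and 17.3%, below that average, and their values did not overlap with those of the members. The difference was 7.12 ± 1.32 percentage points (SD, n = 3; exact sign-flip p = 0.25). For intergenic peaks at the same distance the share was 20.4%, 21.7% and 19.6%, and the members were higher by 4.40 ± 1.58 points (exact sign-flip p = 0.25). Ranked by the deposited −log10 q-value instead, that difference was 2.15 points. The members were lower than promoter peaks in each replicate, with a difference of −5.73 ± 0.822 points (exact sign-flip p = 0.25).

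The 20 strongest hosts, each taken once by its strongest member covered in all 3 replicates, were led by ush, which encodes a zinc-finger cofactor of GATA factors. Its strongest member, ranked 3 in the pooled list, held ranks 2, 4 and 4 in replicates 1, 2 and 3. It lies in the first intron of ush, 1368 bp upstream of a TSS of cbt, a zinc-finger transcription factor gene inside that stretch, so the host of a summit need not be the gene with the nearest TSS. The next host was CG11050, with pooled rank 4 and ranks 5, 3 and 5, in an intron of 140 bp. Lk6, a kinase of the translation factor eIF4E, followed with pooled rank 6 and ranks 7, 6 and 7, at 976 bp upstream of an internal TSS of Lk6 in a first intron of 6991 bp. These 3 members kept nearly the same rank in all 3 libraries. The other 17 hosts had pooled ranks of 34 to 117.

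Among those 17, HmgZ, an HMG-box chromatin protein gene, had pooled rank 35, with ranks 34, 59 and 18. Trl, which encodes the GAGA factor, had rank 42 (36, 49 and 41 in the replicates), and Eip78C, an ecdysone-induced nuclear receptor gene, rank 52 (56, 45 and 57). Tet, the gene of the fly Tet dioxygenase, had rank 96 (94, 100 and 86), and Adf1, a transcription factor gene, rank 101 (103, 148 and 80). The genes of the translational repressor pum, the apical polarity protein crb and the cGMP-dependent protein kinase for had ranks 71, 76 and 79, and chif, needed for the amplification of eggshell genes, had rank 62. The RNA-binding protein gene mub closed the set at rank 117, after CG12769, CG4496, CG9663, Mhcl, CG32264, CG42327 and babos. No function is given here for the CG genes and babos. None of these 20 members ranked below 148 in any replicate.

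The peaks were denser the closer the intron sequence was to a TSS. The rule covers 19.7 Mb, 17.9% of 110 Mb of autosomal sequence, and the members reached 69.0 per Mb there, against 47.4 thresholded peaks per Mb over the whole autosomes. From 501 to 1000 bp the density was 106, 94.5 and 97.3 summits per Mb of eligible intron in replicates 1, 2 and 3. It fell to 75.7 ± 4.16 per Mb from over 1000 to 2000 bp and to 54.8 ± 0.808 from over 2000 to 3000 bp. Beyond that it changed by less than or about the spread between replicates, to 51.7 ± 3.05 up to 4000 bp and 52.7 ± 2.24 up to 5000 bp (SD, n = 3). The nearest bin was thus 1.88 ± 0.0565 times as dense as the farthest, with the replicates at 1.92, 1.82 and 1.91.

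**Figure D1:**
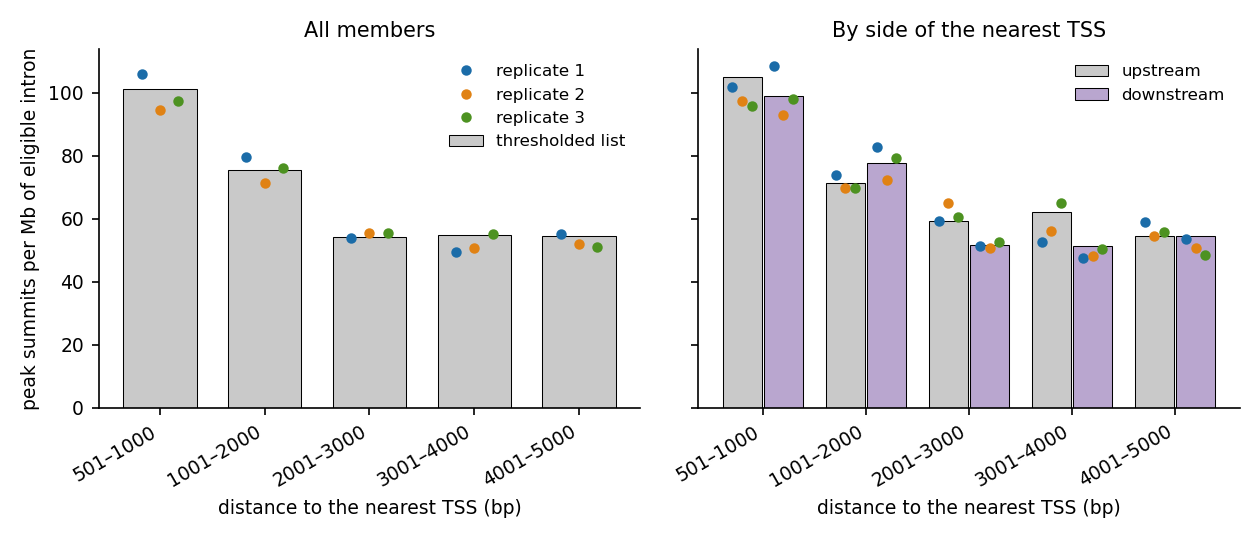
Density of member summits (per Mb of intron that meets the rule) by distance to the nearest TSS in bp, for all members (left) and split by side of that TSS (right). Bars show the thresholded list and points the strongest 6622 regions of each replicate; the replicate points on either side lie between 92.8 and 108 per Mb in the nearest bin and between 47.7 and 64.8 in the bins beyond 2000 bp.

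Density fell on both sides of the TSS. On the thresholded list the nearest bin held 105 summits per Mb upstream and 99.0 downstream, and the farthest held 54.5 on either side. Downstream summits made up 64.6% of the members, close to the 65.8% of eligible sequence that is downstream. Around the limits of the rule, 49 members lay within 50 bp inside the lower limit (median rank 2609) and 34 intronic peaks within 50 bp outside it (median rank 2204.5). At the far limit, 8 members lay within 50 bp inside (median rank 2367.5) and 11 intronic peaks within 50 bp outside (median rank 4222). The long arms were alike, from 64.4 members per Mb of eligible intron on 2L to 73.9 on 2R. Chromosome 4, a small and largely heterochromatic chromosome, held 1 member in 0.316 Mb.

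Members were more often in first introns than the sequence open to them. Of the 1359, 1028 or 75.6% were in the first intron of some transcript, and in replicates 1, 2 and 3 the share was 76.9%, 75.2% and 75.6%, while 56.9% of the eligible sequence is such intron. Introns between exons of a 5′ untranslated region held 53.6% of the members (52.8% ± 0.616 over the replicates) and 42.3% of the sequence. With only the longest transcript of each gene, 49.1% of the members and 39.6% of the sequence were in a first intron, with 50.4% ± 1.26 over the replicates (added after seeing the data). The introns that held members had a median length of 7902 bp and quartiles of 3845.5 and 15866 bp. Intron length was not measured over the eligible sequence, so these values have no comparison.

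A second group lay upstream of promoters that start inside the gene. For 282 members, 20.8%, the nearest TSS was an alternative one of a gene that holds the summit, and the summit lay upstream of it. Only 13.7% of the eligible sequence is of that kind, and the replicates held 20.2%, 20.5% and 19.9%. Their density was 104 per Mb, against 72.7 per Mb for the 736 members downstream of a TSS of a gene that holds them. The remaining 341 members, at 49.6 per Mb, were nearest to the TSS of a gene that does not hold the summit. These 341 made up 25.1% of the members against 34.9% of the sequence, and 281 of them were next to a gene lying wholly inside the host. Of these 341 nearest genes, counted once per member, 166 were protein-coding, 143 were genes of other non-coding RNAs, 23 were tRNA genes, 8 snoRNA genes and 1 an snRNA gene.

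**Figure D2:**
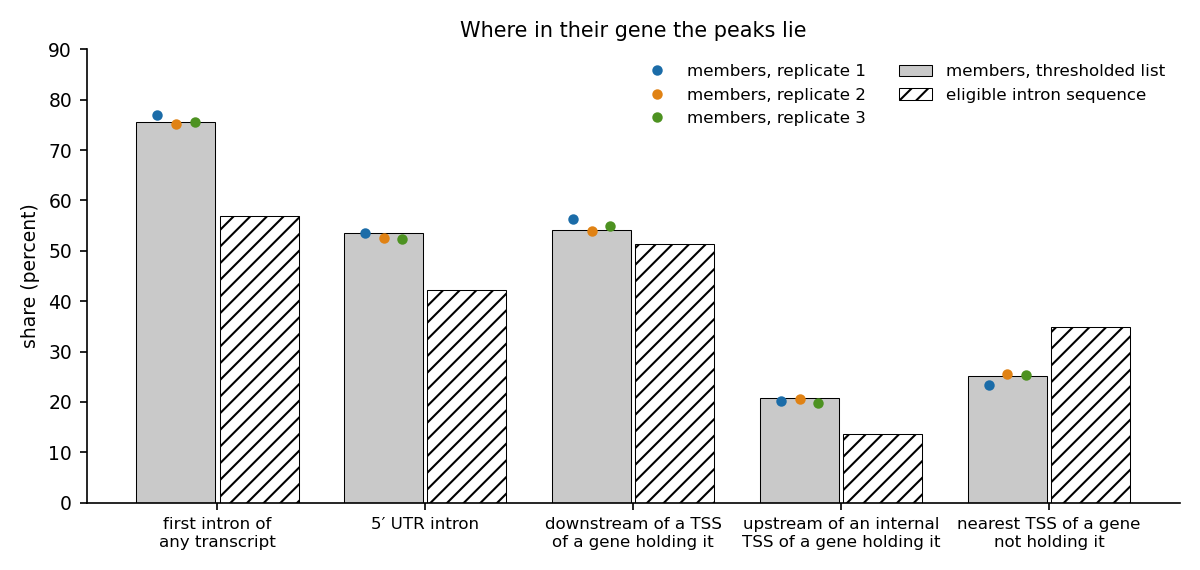
Share in percent of members (grey bars, thresholded list; points, replicates 1 to 3) and of eligible intron sequence (hatched bars) in 5 positions, the first 2 of which overlap with each other and with the other 3. The replicate points lie above the sequence share in the first 4 positions and below it for summits nearest to the TSS of a gene that does not hold them.

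Most members shared their gene with another one. Of 7602 autosomal protein-coding genes with at least some intron meeting the rule, 721 (9.48%) hosted a member, and 757, 685 and 745 did in replicates 1, 2 and 3. Protein-coding genes hosted 1337 members, and the other 22 were in non-coding RNA genes. Among the 721 hosts 411 held 1 member, 169 held 2, 74 held 3 and 67 held 4 or more, the last group holding 366 members in all. Some neighbouring members may be parts of 1 broad peak, which was not tested: 146 members overlapped another member, 58 neighbouring summits were 190 to 210 bp apart and none were closer. Merging overlapping members gave 1286 sites. This count was added after seeing the data.

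The gene with the most members was shn, which encodes a zinc-finger partner of Mad and Med in repression and activation of BMP target genes. Its 13 members, 12, 12 and 15 by the replicate lists, lay 17.4 to 44.1 kb from the 5′ end of a gene of 58.3 kb and made 10 separate sites, and 12 of the 13 were covered in all 3 replicates. For 10 of the 13 the nearest TSS was an internal one of shn, downstream of the summit. The strongest, with pooled rank 472 and ranks 438, 390 and 667, lay 1344 bp downstream of a TSS of shn. Svil, a villin family actin-binding protein gene, held 11 members in 11 sites, spread from 33.4 to 110 kb of a gene of 122 kb. The chromatin gene tou also held 11, in 10 sites, of which 6 were covered in all 3 replicates. In psq, a BTB-domain transcription factor gene, 10 members made 9 sites, and in sbb, known also as master of thickveins and involved in repression of tkv, 10 members made 9 sites. All 10 members in sbb were nearest to a TSS of some other gene.

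**Figure D3:**
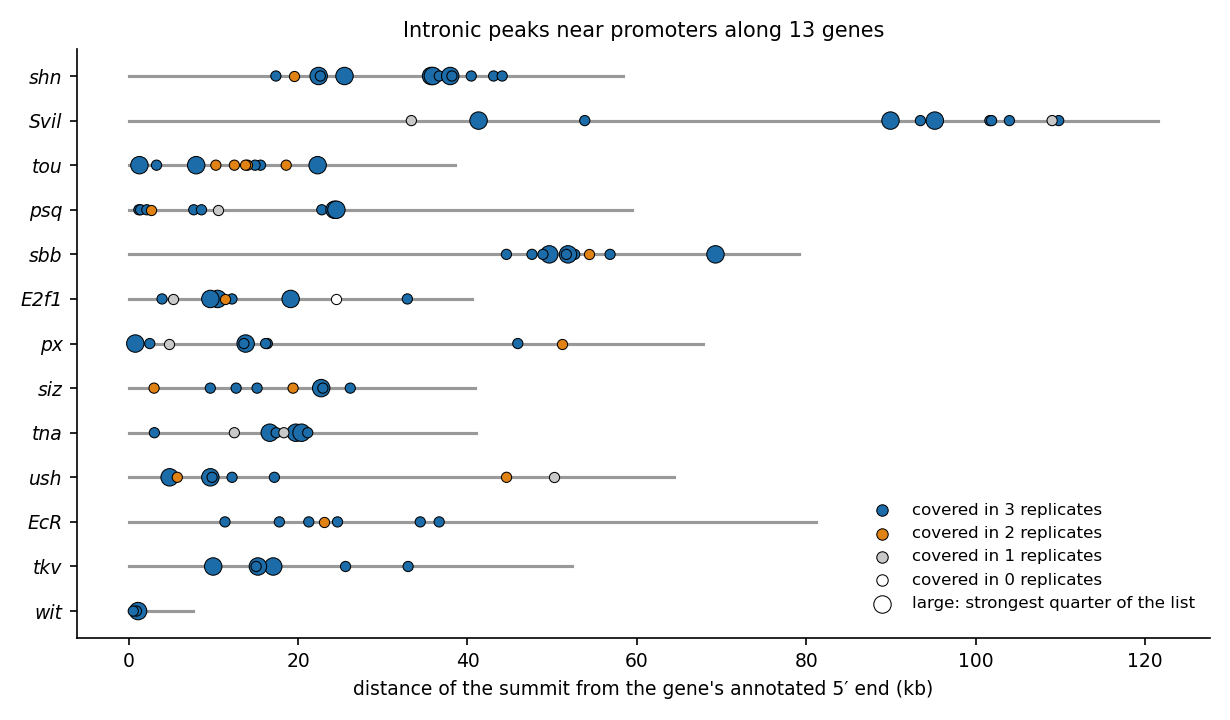
Member summits along 13 genes, as distance in kb from the annotated 5′ end of the gene (grey line, gene length), coloured by the number of replicates that cover them, with large circles for ranks in the strongest 25% of the thresholded list. The 13 members in shn span 17.4 to 44.1 kb, and the 3 members in wit lie within 1.11 kb of its 5′ end.

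Of 25 eligible genes on the TGF-beta and BMP list, 13 hosted a member, 52.0%, 52.0% and 56.0% in the replicates, against 9.48% of all eligible genes. Counted by the gene of the nearest TSS instead, the list had 11 of 25 (44.0%), against 8.67% of all genes. Among the receptors, wit, a type II receptor gene, held 3 members in 2 sites led by rank 146 (133, 158 and 100). The gene put, a type II receptor gene shared by the Activin and BMP branches, held 1 at rank 1099 (1229, 881 and 1579). The BMP type I receptor gene tkv held 6 members in 5 sites led by rank 234 (283, 191 and 191). Of these 6, 4 were nearest to a TSS of lncRNA:CR44744, the strongest among them. The Activin type I receptor gene babo, with 3.394 kb of eligible intron, held none. Among the SMAD genes, Mad, the BMP SMAD, held 3 members led by rank 2122 (2304, 2570 and 1867), and Dad, the inhibitory SMAD, held 2 that form 1 site, led by rank 1726 (1818, 1722 and 1884). Med, the common SMAD, held none in 0.565 kb of eligible intron, and Smox itself is X-linked and could hold none under the rule. Extracellular regulators also hosted members: Fs, the follistatin gene, had 4 led by rank 646, and the glypican genes dlp and dally had 4 and 3 led by ranks 686 and 2013. Neither the Activin ligand gene Actbeta nor Ada2a hosted a member, with 2.402 and 0.098 kb of eligible intron.

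Of the eligible ecdysone response genes, 16 of 26 or 61.5% hosted a member (57.7%, 65.4% and 57.7% in the replicates). The share over all eligible genes was 9.48%. Counted by the gene of the nearest TSS instead, the list had 11 of 26 (42.3%), against 8.67% of all genes. EcR, the ecdysone receptor gene, held 7 members 11.4 to 36.7 kb from its 5′ end, with pooled ranks of 2740 to 5835. Its strongest was weaker than the median strongest rank of all 721 hosts, 2280. Those at 5637 and 5835 were among the weakest 25% of the members. Of these 7, 5 were nearest to a TSS of a gene other than EcR, 4 of them to one of 2 tRNA genes, tRNA:Lys-CTT-1-1 and tRNA:Asn-GTT-1-1. The nuclear receptor gene Eip75B held 7 members led by rank 531 (480, 505 and 641), of which 3 were covered in all 3 replicates, and ftz-f1 held 3 led by rank 1373. In vri, a bZIP repressor gene that is also part of the circadian clock, the pair of strongest members had ranks 387 and 417. ImpL2, which encodes a secreted insulin-binding protein, had rank 561, tai, a coactivator of EcR, rank 687, and Oatp74D, an ecdysone importer, rank 1605. The leading members in Eip75B and ImpL2 were nearest to TSSs of lncRNA:CR45921 and CG46460. E23 and Eip63F-1 hosted none.

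Share and density gave different orders of the lists. Long eligible introns give a gene more room for a member: the median eligible length was 10.626 kb for the ecdysone list, 4.041 kb for the TGF-beta and BMP list and 0.433 kb for all genes. Per 100 kb of eligible intron, summed over genes, the TGF-beta and BMP list held 25 members, the ecdysone list 14.2 and all genes 6.58. Of the 57 members on the TGF-beta and BMP list, 13 were in shn and 10 in sbb, where all were nearest to a TSS of another gene. The Hippo pathway list, with 9 of 20 genes (45.0%), held 19.96 per 100 kb. Its hosts had a median strongest rank of 720, against 1099 for the TGF-beta and BMP hosts and 2280 for all 721. The clock, cell cycle and chromatin lists, with 3, 4 and 5 hosts, were at 720, 779.5 and 809. A strongest rank also depends on how many members a gene holds, and 411 of the 721 hosts held 1. The strongest Hippo hosts were crb at rank 76, the cyclin gene CycE at rank 214 (239, 182 and 228), the upstream regulator ex at rank 237 (263, 216 and 218) and the apoptosis inhibitor gene Diap1 at rank 412 (347, 435 and 487). Dlish and Fbxl7 hosted none.

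Other signalling lists were also above the background share. The EGFR and MAPK list had 12 of 22 genes (54.5%) but differed between replicates, at 68.2%, 40.9% and 45.5%. Its strongest hosts were the repressor gene aop at rank 351, its antagonist edl at 449 and the receptor gene Egfr at 678, while the ligand genes vn, spi and Krn were at 5368, 6132 and 6168. Cbl and Mkp3 hosted none. The Wingless list had 10 of 21 (47.6%), led by the receptor genes fz at 288 and arr at 722 and the feedback inhibitor nkd at 757, with fz2 at 1047 and none in Apc or Apc2. Counted by the gene of the nearest TSS instead, it had 4 of 21 (19.0%) against 8.67% of all genes; the leading members in fz and arr were nearest to TSSs of CG13481 and CG43192. JAK/STAT and JNK signalling had 7 of 12 (58.3%), with raw at 693, msn at 797, Socs36E at 1563 and Stat92E at 1578, and none in Su(var)2-10 or Traf4. The Notch list had 5 of 15 (33.3%), led by the coactivator mam at 226 and the ubiquitin ligase neur at 253, followed by numb at 1623, kuz at 2759 and fng at 4414, with none in H or Nct, and had 3 by the gene of the nearest TSS. The insulin and TOR list had 7 of 26 (26.9%), with sima, the fly HIF-alpha gene, at 546, chrb at 1317 and foxo at 3185, after Lk6, and none in Ilp8 or Lgr3.

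Regulators of transcription followed. BTB and zinc-finger factors had 18 of 42 genes (42.9%) and 12.2 members per 100 kb, with chn at rank 540 and jing at 609 after ush and Trl, and none in GATAd or GATAe. Nuclear receptors had 6 of 17 (35.3%), or 3 by the gene of the nearest TSS, with none in Hnf4 or Hr38. Chromatin regulators had 5 of 36 (13.9%, against 9.48% of all genes), namely Tet, the Trithorax gene trx at 163, kis at 809, osa at 1775 and Mi-2 at 4533, with none in Asx or Bap170. By the gene of the nearest TSS they had 3 (8.33%), against 8.67% of all genes. Clock genes had 3 of 11 (27.3%), vri, the kinase gene dco at 720 and Pdp1 at 1845, with none in CkIIalpha or Clk. Insulator proteins had 1 of 10, Trl, a share near the 9.48% of all genes, and CTCF and Chro had none. Cell cycle genes had 4 of 21 (19.0%) but 27.4 members per 100 kb, 9 of their 15 members being in E2f1. Its strongest had rank 1057, against 502 for trbl and 6533 for stg, and Cdk1 and Cdk2 hosted none.

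The axon guidance, muscle, synapse and selector lists had a density below the 6.58 members per 100 kb of all genes, and the shares of the last 3 lay near the 9.48% of all genes. Axon guidance and adhesion genes had 12 of 40 (30%) but 3.75 members per 100 kb, led by fra at rank 738, Sema1a at 822, sli at 1281 and Sema5c at 1565, and CadN2 and Con held none in 27.987 and 40.607 kb. Muscle genes had 3 of 28 (10.7%) and 2.71 per 100 kb, in Msp300, Mef2 at 2395 and how at 4673, with none in Act57B or Act79B. Synapse and ion channel genes had 3 of 27 (11.1%) and 1.77 per 100 kb, in KCNQ at 201, Shal at 4828 and Shaw at 4871, with none in Ca-alpha1D or ChAT. Selector genes of the wing and leg discs had 3 of 29 (10.3%) and 2.59 per 100 kb, in ptc at 2103, al at 2588 and hth at 3516, with none in Awh or Dll. By the gene of the nearest TSS the selector list had 1 (3.45%), below the 8.67% of all genes. With only peaks covered in all 3 replicates the muscle and synapse lists had 2 each (7.14% and 7.41%), below the 7.56% of all genes.

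The remaining lists lay near or above the density of all genes. Small GTPase and actin regulators had 11 of 36 (30.6%) and 7.92 per 100 kb, led by trio at 227, ena at 692 and RhoGEF64C at 832, with none in Abi or CenG1A. Lipid and sugar regulators had 6 of 26 (23.1%) and 6.45 per 100 kb, with SREBP at 727, the lipase gene bmm at 1342, mdy at 2498 and Sik3 at 3050, and none in ACC or AkhR. Cell death and autophagy genes had 3 of 19 (15.8%; 21.1%, 5.26% and 10.5% in the replicates) and 17.9 per 100 kb, in Diap1, Atg1 at 5491 and ref(2)P at 6185, with none in Atg14 or Atg16; only 1 (5.26%) remained with peaks covered in all 3 replicates, below the 7.56% of all genes. Toll and Imd genes had 3 of 17 (17.6%) and 10.5 per 100 kb, in Dif at 1545, Tl at 4572 and PGRP-LB at 5883, with none in CYLD or IKKbeta. As the exception with no member, of 19 eligible ribosomal protein genes, with a median of 0.114 kb of eligible intron, RpL10 and RpL10Ab among them, 0 hosted a member.

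**Figure D4:**
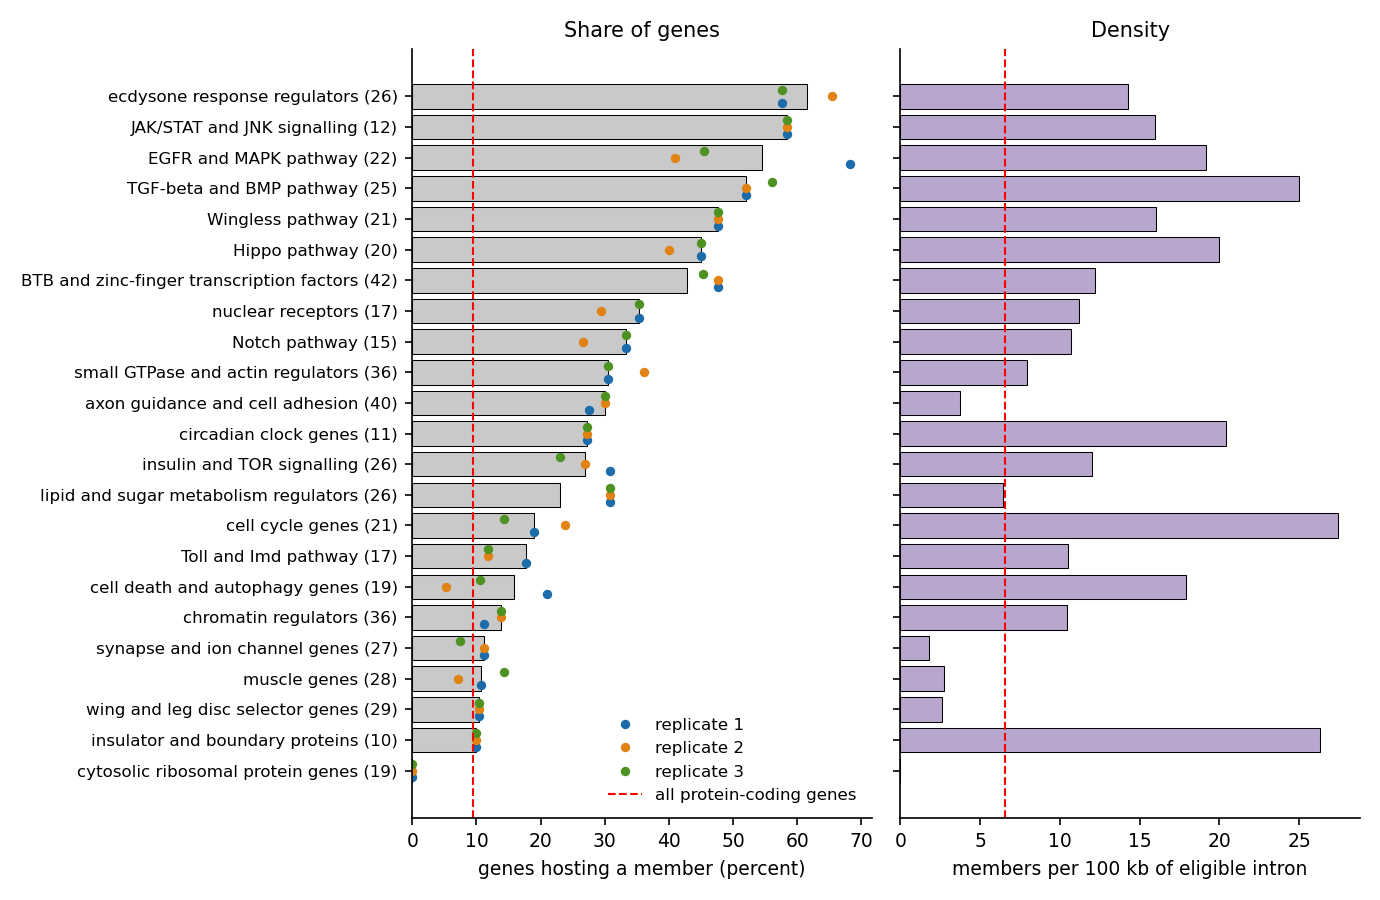
Share of eligible genes that host a member in percent (left; bars, thresholded list; points, replicates; number of eligible genes in brackets) and members per 100 kb of eligible intron (right) for 23 gene lists, with the value over all eligible protein-coding genes as a dashed line at 9.48% and 6.58 per 100 kb. The bars of the muscle, synapse, selector and axon guidance lists lie above the line for share and below it for density. So do those of the lipid and sugar list, just below for density at 6.45 per 100 kb. The points of muscle in replicate 2 (7.14%) and synapse in replicate 3 (7.41%) lie below the line for share.

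At the summits the sequence was AT-rich against its own flanks. Windows of the same size centred 500 bp to either side, kept where they were wholly intronic and clear of any thresholded peak (2063 windows), had a GC content of 42.5%, and summit windows had 32.7%. The difference was −10.2, −8.84 and −9.03 percentage points in replicates 1, 2 and 3, or −9.35 ± 0.731 (SD, n = 3; exact sign-flip p = 0.25). With windows of 150 bp either side it was −5.77 points. Deep intronic peaks showed −10.4 ± 0.673 and intergenic peaks at the same distance, with all flanks kept, −10.4 ± 0.716. The GC content of the summit windows themselves, 33.1% ± 0.592 over the replicates, was close to the 32.9% ± 0.560 of deep intronic peaks.

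Short elements were counted as present or absent in a window, on both strands. The SMAD box GTCT was in 42.0% of the member windows, 49.3% of the flanks and 41.2% of all thresholded windows, and its difference was −5.82 ± 1.44 points over the replicates. For TGCT, a string of the same letters that is no SMAD site, the difference was −4.47 ± 0.576 points, but −0.231 points with windows of 150 bp either side. The GC-rich element GGCGCC was in 1.18% of member windows and 1.94% of flanks (1.53% of all thresholded windows), and the Mad site GCCGNCGC in 0.368% and 1.84% (0.606% of all). The palindrome GTCTAGAC was in none of the 1359 member windows and 0.0303% of all. In steps of 25% of the members, from the strongest to the weakest, 38.5%, 47.1%, 41.6% and 40.9% held a SMAD box. Against deep intronic peaks, the SMAD box share of the members differed by 3.14, 0.799 and 1.12 points in replicates 1, 2 and 3 (mean 1.68 ± 1.27; exact sign-flip p = 0.25). The direction turned with windows of 150 bp either side, to −1.99 points, an alternative added after seeing the data.

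Several AT-rich elements were more frequent at the summits than in the flanks, but not all of them. The TATA box string TATAAA was in 34.4% of member windows, 15.4% of flanks and 32.0% of all thresholded windows, a difference of 17.5 ± 0.807 points over the replicates. The GATA factor site AGATAA was in 14.3% and 9.21% (12.3% of all), a difference of 5.26 ± 0.732 points, and the homeodomain core TAATTA in 15.0% and 10.2% (14.8% of all), a difference of 5.19 ± 0.923 points. With flanks 1000 bp away these last differences were 2.48 and 2.41 points. The POU core ATGCAAAT was lower at summits, in 2.28% against 3.83% of flanks (2.32% of all), a difference of −1.24 ± 0.0382 points. Also lower, the CA repeat CACACA was in 10.2% of summits and 19.1% of flanks (9.80% of all), a difference of −8.95 ± 0.355 points, and the GAGA factor site GAGAG in 14.4% and 22.6% (14.6% of all), a difference of −6.83 ± 2.57 points. With flanks 1000 bp away the CA repeat differed by −5.03 points. The GAGA factor site then differed by −1.24 points, and by −1.54 points with windows of 150 bp either side, in both cases with replicates of opposite sign (exact sign-flip p = 0.5). The nuclear receptor hexamer AGGTCA was in 3.16% and 3.39% (2.89% of all), a difference of 0.0477 ± 0.635 points over the replicates. The exact sign-flip p was 0.25 for the difference from the flanks of each element given here and in the paragraph on SMAD elements, except the nuclear receptor hexamer, with p = 1.

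For the GATA factor site, the homeodomain core and the TATA box string, some string of the same letters gained more at the summits. This comparison was added after seeing the data. Among the 30 distinct orderings of the letters of AGATAA, reverse complements counted together, the site itself was 18th by the ratio of its share at summits to that in flanks, with 1.56 against a median of 1.63. TAATTA was 14th of 14, with 1.47 against a median of 1.99. TATAAA was 4th of 15 (2.24, median 2.03), and GTCT was 8th of 12 (0.852, median 0.868). The GATA factor site was more frequent in member windows than in those of deep intronic peaks, whose GC content is alike: it was in 14.1% ± 0.641 of their windows over the replicates, against 10.8% ± 0.860 of deep intronic peaks. That difference was 3.32 ± 1.12 points (exact sign-flip p = 0.25), and against intergenic peaks at the same distance it was 2.40 ± 0.494 points (exact sign-flip p = 0.25). With windows of 50 bp either side these were 1.94 and 0.890 points, and with 150 bp 5.32 and 4.07, the sign of 1 replicate being opposite for 0.890 (exact sign-flip p = 0.5; window sizes added after seeing the data). The flanks differed too, at 9.21% for members and 7.05% for deep intronic peaks.

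**Figure D5:**
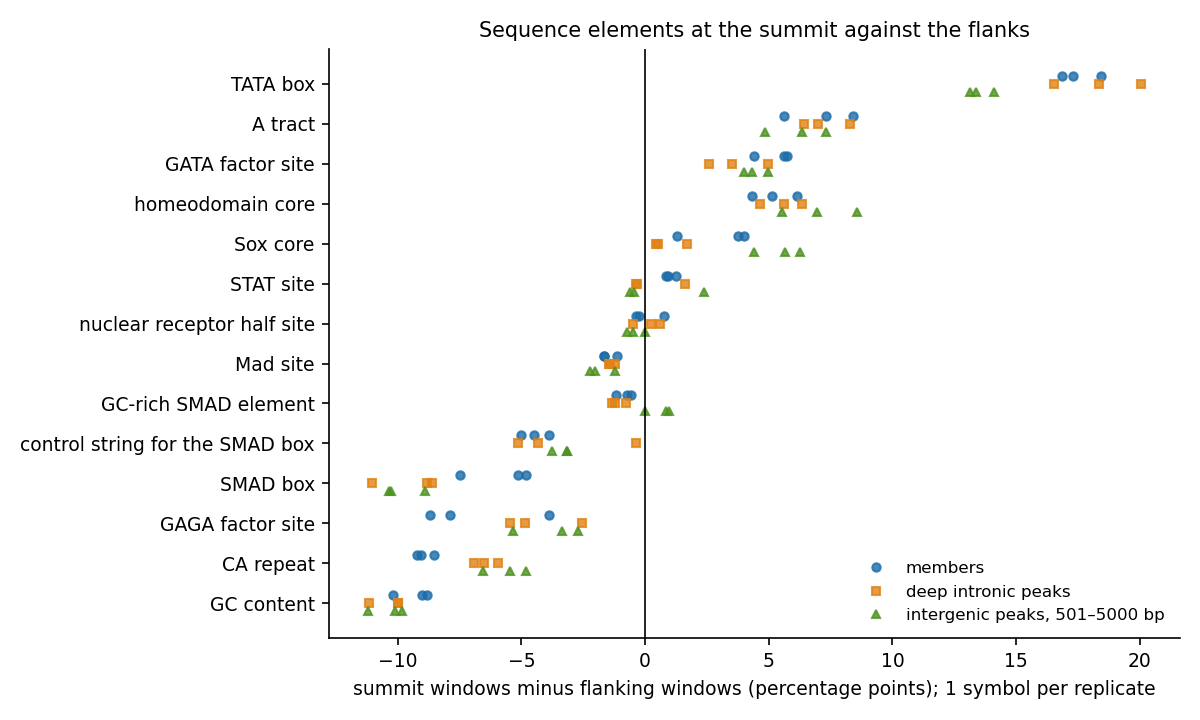
Share of windows with an element at the summit minus the share in the flanks, in percentage points (for GC content, the difference in percent GC), with 1 symbol per replicate for members, deep intronic peaks and intergenic peaks 501 to 5000 bp from a TSS. All 9 symbols are right of 0 for the TATA box, A tract, GATA and homeodomain sites, and left of 0 for the SMAD box, the CA repeat and GC content.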

How the data were processed

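Peak lists on dm6 from 3 biological replicates were used. Per the listings that come with the files, the authors called regions on each replicate and on the pooled reads, against 1 control alignment, and then derived the thresholded list. What the control was, and which aligner, caller and cutoff were used, is not given in the sources used here. A deposited score of unstated scale was used for ranks within a list, and a deposited −log10 q-value for 1 alternative. Read counts are not in these lists, so depth is unknown.

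Summits were placed on the gene models of Ensembl release 115 for BDGP6.54, which has the sequence of dm6, with transposable elements left out. A TSS is the start of any annotated transcript. Coverage means an overlap of 1 bp with one of the strongest 6622 regions of a replicate. The rank of a member in a replicate is the best rank among the regions that overlap it, not that of its own summit. A gene hosts a member when the summit lies inside it, and overlapping genes cannot be told apart by position. Windows reaching 75 bp either side were compared with windows 500 bp away by exact two-sided sign-flip tests over the replicates. The smallest p these can give is 0.25. Sequences from 1 chromosome arm are not printed here.

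The members, the 23 gene lists (801 entries, 794 matched, 26 through older symbols) and the 30 sequence elements were chosen with earlier results of these data known. Named genes are the hosts of the 20 strongest members covered in all 3 replicates, the 5 genes with most members, up to 4 hosts with the strongest members and the first 2 non-hosts by name in each list, with the genes Dad, EcR, put, babo, Med, Mad and Smox in any case. Further hosts of the TGF-beta, ecdysone and EGFR lists were named after their values were seen, as were the sequences' CtBP and chm windows by their element. Functions were tested on simulated data. Python 3.11.15, numpy 2.4.6, pandas 2.3.3 and scipy 1.17.1 were used.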

Additional observations from a re-analysis of the deposited data

How the results depend on the processing

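The member count stayed between 998 and 1415 under every alternative. The member share of autosomal peaks, 26.0%, was 23.9% with only the 5′ end of each gene as TSS, 24.3% with TSSs of protein-coding genes only, 27.0% with exons of protein-coding genes only and 19.1% without summits up to 1000 bp from a TSS. Coverage in all 3 replicates, 73.7%, was 66.4% when 50% of the peak had to be covered, 42.4% with the strongest 3311 regions and 96.2% with the strongest 13244, and leaving out a replicate gave 77.2% to 80.7%. The first-intron share was 47.7% for the longest transcript of the host gene, and the downstream share was 66.0% with TSSs of protein-coding genes only. The density ratio stayed at 1.86 to 1.91 when a replicate was left out. Host genes fell from 721 to 174 with only the strongest 1000 peaks, by construction. The strength differences kept their sign when ranked by −log10 q-value, at 5.15 points against deep intronic, 2.15 against intergenic and −4.64 against promoter peaks. Summit minus flank differences kept their sign but not their size. Over the alternatives GC content ran from −5.77 to −10.3 points, the SMAD box from −4.48 to −6.31, its control string from −0.231 to −5.15, the Mad site from −0.887 to −1.86 and the GC-rich SMAD element from −0.303 to −0.981. The GATA site ran from 2.48 to 5.68, the homeodomain core from 2.41 to 5.92, the TATA box from 12.7 to 18.4, the CA repeat from −5.03 to −9.15 and the GAGA site from −1.24 to −8.30. Between kinds of peak, in alternatives added after seeing the data, the SMAD box difference of 1.68 points from deep intronic peaks turned to −1.99 with windows of 150 bp either side, and without a replicate was 0.957 to 2.13. The GATA differences kept their sign, at 1.94 to 5.32 points from deep intronic and 0.890 to 4.07 from intergenic peaks. Of the 23 lists, 22 were above the background share, against 19 of 23 with only peaks covered in all 3 replicates, 19 with the strongest 1000 peaks and 20 with the gene of the nearest TSS. With the strongest 1000 peaks the Toll and Imd, muscle and selector lists had no host. No paired analysis was possible because there is 1 group; differences between kinds of window or peak were taken within each replicate. The unknown depth limits what the weakest 25% of the members can show.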
